A study of Mus musculus with 4 samples.

Results

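The genes described here code for the enzymes of the tricarboxylic acid (TCA) cycle, the enzymes that bring pyruvate into it, and the mitochondrial machinery of fatty acid oxidation. They were taken by symbol from a fixed list, and all 38 listed genes were found among the 55573 genes of the table (methylmalonyl-CoA mutase, Mut, appears there under its newer symbol Mmut). By role, 14 belong to the TCA cycle, 7 to pyruvate entry, 13 to fatty acid oxidation and 4 to electron transfer and methylmalonyl-CoA conversion. Of these, 37 reached a mean of at least 1 RPKM (reads scaled by gene length and by a library size set by the authors) and were tested. The remaining gene, Cpt1b, was listed at 0 in all 4 libraries.

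Ribosome-protected RNA was sequenced from primary myoblasts, the muscle precursor cells grown out of mouse hind-limb muscle, on day 2 of proliferation in medium with 10 µg/ml FGF. There were 2 libraries labelled WT and 2 labelled KO for Eif5a, and the study describes the donors as tamoxifen-induced eIF5A-KO mice of 3 weeks of age and their WT littermates. The KO genotype is Pax7CreERT2/+;eIF5A f/f, so the deletion depends on Cre expressed from Pax7 in satellite cells, and other cells that grow out of the muscle keep the gene. The study gives the WT genotype as Pax7CreERT2/+ in some places and as Pax7+/+;eIF5A f/f in another, so it is open here whether the WT cells carried Cre or the floxed allele. The labels do not say whether the libraries of a group came from separate mice or cultures, and p-values then measure only the spread between these libraries, which may be technical. The values were not set against RNA abundance, so they are ribosome-protected signal and not translation efficiency. The sample titles speak of Polysome-Seq, while the extraction text and the study's methods describe isolating nuclease-protected footprints. The name ribosome-protected rests on that description, and the deposited table does not settle which of the assays its values come from.

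The TCA cycle oxidises acetyl-CoA in the mitochondrial matrix and passes the electrons to the respiratory chain as NADH and FADH2. Acetyl-CoA reaches the cycle from pyruvate through the pyruvate dehydrogenase complex, and from fatty acids through the carnitine shuttle and the repeated steps of beta-oxidation, whose electrons leave through the electron transfer flavoprotein. Myoblasts use both fuels, and oxidative capacity is known to grow as muscle cells differentiate. eIF5A, which needs the spermidine-derived residue hypusine to work, helps ribosomes through stretches that stall, runs of proline in particular. Some mitochondrial enzymes, Suclg1 and Mut among them, have been reported in macrophages to need hypusinated eIF5A.

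Runs of proline codons are shown first because they are the sequence feature most often tied to eIF5A. Among the 38 coding sequences, 5 (13.2%) held a run of 3 or more consecutive proline codons (CCN), against 20.1% of the 21405 protein-coding genes with a complete coding sequence in GENCODE M21, whose coding lengths differ (median 1197 bases, against 1298 for the members). Each run is given 5′ to 3′ on the coding strand of GRCm38 (mm10), with the proline codons in capitals and the neighbouring codons in lower case.
Dlst, codons 174 to 177, exon 8 of 15, chr12:85122052-85122081, plus strand: ccggcggccCCTCCTCCCCCCgcagcacct
Suclg1, codons 121 to 123, exon 4 of 9, chr6:73263841-73263867, plus strand: atctatgtcCCTCCTCCTtttgctgct
Dlat, codons 322 to 324, exons 6 and 7 of 14, chr9:50649765-50650768, minus strand, with an intron inside these coordinates: ccacctgccCCACCCCCGgtggcagct
Pcx, codons 537 to 539, exons 13 and 14 of 21, chr19:4618048-4618161, plus strand, with an intron inside these coordinates: cccataggcCCACCTCCAgctggtttc
Cpt1b, codons 513 to 515, exon 13 of 19, chr15:89419913-89419939, minus strand: accacgttgCCACCCCCTcagcggctg
Dlst and Dlat are the acyltransferase cores of the 2-oxoglutarate and pyruvate dehydrogenase complexes, Suclg1 is the alpha subunit of succinyl-CoA ligase, Pcx is pyruvate carboxylase and Cpt1b is the muscle form of carnitine palmitoyltransferase 1. The 4 tested genes of this group had a median log2 fold change (KO-labelled libraries minus WT, on log2(RPKM + 1)) of 0.01, and the other 33 tested members had a median of 0.40. Over tested protein-coding genes the same medians were -0.13 for the 2537 genes with such a run and 0.12 for the 7303 without. The difference between genes with and without a run was not tested, and their coding GC was not matched. Among the 4 tested members, Pcx rested on 18 reads and had the lowest adjusted p, 0.732 by limma. Mut has no run of 3 prolines.

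The libraries held between 642429 and 704006 whole reads, recovered from the RPKM values, of which 33.9% to 41.5% lay on protein-coding genes in WT and 59.2% to 65.4% in the KO-labelled libraries. The library sizes by which the deposited values had been divided were 602863 and 471136 in WT, below the recovered totals of 648386 and 642429, and 906990 and 807705 in the KO-labelled libraries, above their totals of 704006 and 650210. The deposited scale thus departs from these totals in opposite directions in the groups, how it was set is not given in the sources used here, and values under other scalings are given below. Eif5a was at 34.9 and 65.2 RPKM in WT and at 60.3 and 59.4 RPKM in the KO-labelled libraries, so the targeted gene was not lower there (log2 fold change 0.32, SE 0.48, adjusted p = 0.839 by limma), and without WT library 1 its log2 fold change was -0.12. Directions below are therefore those of the KO-labelled libraries. The cell type markers also differed between libraries. The 16 differentiation markers summed to 334.7 and 79.2 RPKM in WT libraries 1 and 2, and to 48.0 and 43.6 RPKM in the KO-labelled ones. Myog, the transcription factor of early differentiation, was at 91.0 RPKM in WT library 1 and at 4.26, 0.737 and 1.66 in the others, while Tnnc2 was listed at 0 in all 4. The 8 myoblast markers summed to 253.5 and 207.0 RPKM in WT and to 117.7 and 131.8 in the KO-labelled libraries, and Myod1 stood at 139.9 and 117.5 against 48.6 and 79.8 RPKM. All marker sums here follow the deposited scale. In recovered reads the myoblast markers had 499 and 319 in WT and 528 and 366 in the KO-labelled libraries. The log2 fold change of Myod1 was -1.03 (SE 0.48, unadjusted p = 0.078, adjusted p = 0.676 by limma). It ranged from -1.38 to -0.42 over 14 alternatives. The 10 fibroblast markers summed to 503.2 and 339.7 RPKM in WT and to 865.7 and 397.7 RPKM in the KO-labelled libraries. Dcn alone was at 239.5 and 125.8 RPKM in WT and at 459.9 and 171.1 RPKM in the KO-labelled libraries. The 8 endothelial markers summed to between 192.3 and 230.1 RPKM in all 4 on the deposited scale. In recovered reads they had 488 and 435 in WT and 867 and 745 in the KO-labelled libraries. Both KO-labelled values lay above both WT values in 5 of these 8 markers (62.5%), against 22.4% of tested protein-coding genes. The 8 immune markers summed to between 48.2 and 76.5 RPKM, with Itgam at 0 throughout. In such cultures, fewer cells of a type and less RNA per cell cannot be told apart. The 8 adipocyte markers summed to 40.2 and 6.82 RPKM in WT and to 8.44 and 2.36 RPKM, with Lep at 0 throughout. At an unadjusted p under 0.05 by limma, 4 of 10 tested differentiation markers were lower in the KO-labelled libraries (Myog, Actc1, Mylpf and Tnnt3). The same held for 4 of 8 myoblast markers (Myf5, Pax7, Des and Chrna1). Lyz2 (5 immune markers tested) and Adipoq (3 adipocyte markers tested) were also lower. Postn, Kdr and Adgre1 were higher (10 fibroblast, 8 endothelial and 5 immune markers tested). Over all tested genes, 4.46% were lower and 2.86% higher at that threshold. Vcam1 alone of the myoblast markers lay above WT without overlap. Of the fibroblast markers, 3 lay above and 2 (Thy1 and Fbln1) below without overlap. None of the markers past the unadjusted threshold passed the adjusted one in this fit. Of the alternatives, limma-voom on recovered reads alone brought 1 of them past it (Chrna1, log2 fold change -2.36, adjusted p = 0.040). The unadjusted p was over 0.05 for Mylpf, Actc1, Myog, Pax7, Des and Lyz2 with libraries scaled to the same sum over all genes, and it was under 0.05 in 5 of 14 alternatives for Kdr. The log2 fold change of Myog, -3.36 as fitted, ranged from -1.29 when WT library 1 was left out to -5.42 when WT library 2 was. The part of these mixtures in the values of the enzymes was not tested.

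The share of protein-coding reads that fell on the 38 genes was examined first, because it does not depend on how the libraries were scaled to one another. It was 0.308% in WT library 1 (828 reads, 95% Wilson interval 0.287 to 0.329%) and 0.421% in WT library 2 (917 reads, 0.395 to 0.449%). In the KO-labelled libraries it was 0.426% (1959 reads, 0.407 to 0.445%) and 0.460% (1772 reads, 0.439 to 0.482%). WT library 1 lay below the other 3, and WT library 2 lay within the counting interval of KO library 1. The group means were 0.364% ± 0.080 and 0.443% ± 0.024 (SD, n = 2 each), with an exact two-sided permutation p of 0.333, the smallest that 2 against 2 libraries can give. The difference of 0.078 percentage points became 0.022 when WT library 1 was left out and 0.135 when WT library 2 was. These intervals cover counting error only.

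**Figure D1:**
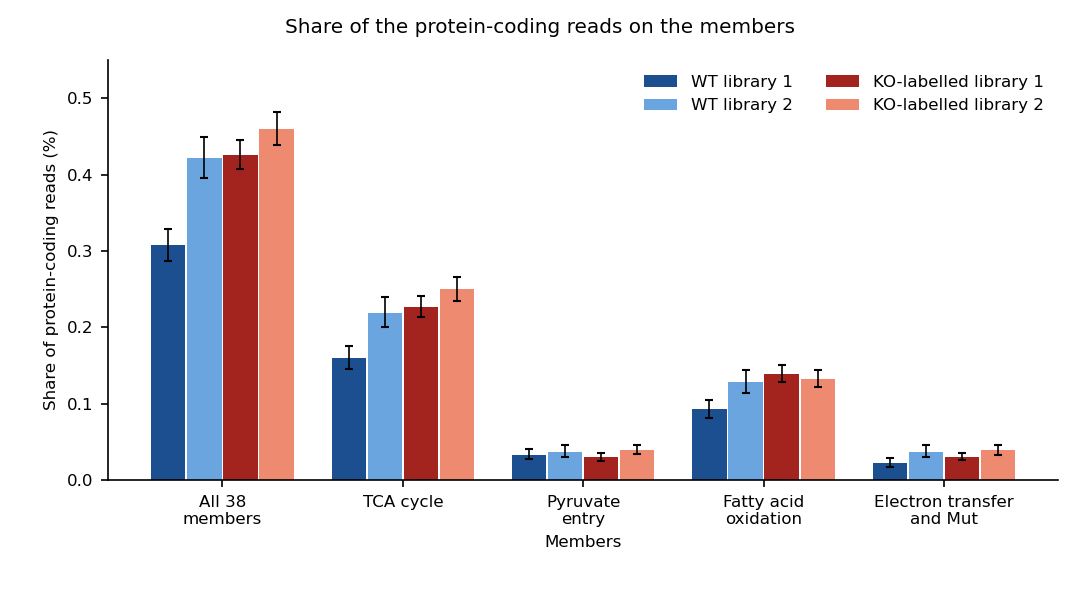
Percentage of each library's protein-coding reads on the 38 genes and on each role (bars, with 95% Wilson intervals), for 2 WT libraries and 2 KO-labelled libraries. WT library 1 has the lowest share over all members, 0.308%, while the other libraries lie between 0.421% and 0.460%.

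By role, the TCA cycle genes took 0.160% and 0.219% of the protein-coding reads in WT and 0.227% and 0.250% in the KO-labelled libraries. The genes of fatty acid oxidation took 0.093% and 0.128%, against 0.139% and 0.132%. In both roles the groups did not overlap, and WT library 2 lay nearer to the KO-labelled libraries than to WT library 1. Pyruvate entry took 0.033% and 0.037% in WT and 0.030% and 0.039% in the KO-labelled libraries, and electron transfer with Mut took 0.022% and 0.037%, against 0.030% and 0.039%. Those groups overlapped.

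No member passed the adjusted threshold in either direction (limma with Benjamini-Hochberg adjustment over 11363 tested genes, adjusted p under 0.05), where 0.0968% of all tested genes were called lower and 0.0088% higher. Idh3a and Hadh, 2 of the 37 tested members, were higher in the KO-labelled libraries at an unadjusted p under 0.05, against 2.86% of all tested genes, and 0 were lower, against 4.46%. The limma fit without WT library 1, without KO library 1 or without KO library 2 gave 0 higher members at this threshold, against 1.80% to 3.93% of all tested genes. The fit without WT library 2 gave 5, against 7.12%. The lowest adjusted p of a member was 0.660. Values of the groups did not overlap in 18 members with the KO-labelled libraries above (48.6%) and in 4 with them below. The same held for 20.1% and 20.3% of all tested genes, and for 22.4% and 19.3% of the tested protein-coding genes, which are the closer comparison since every member is protein-coding.

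The log2 fold change was above 0 in 30 of the 37 tested members (81.1%), against 53.1% of tested protein-coding genes. Its median was 0.37 over the members, 0.05 over protein-coding genes and 0.00 over all tested genes. Scaling the libraries to the same sum over all genes moved the median of all genes to 0.47 and that of the members to 0.94, with 34 members above 0, so that the members lay 0.47 above the typical gene there and 0.37 above it on the deposited scale. With protein-coding sums made equal the members lay 0.36 above the typical gene, and 27 were above 0. Without WT library 1 the median of the members was 0.20 with 23 above 0, and without WT library 2 it was 0.54 with 29 above 0. The spread between the WT libraries was of the same size: 28 of the 37 members were higher in WT library 2 than in WT library 1, by a median of 0.34 on the log2(RPKM + 1) scale, while that median was 0.00 over all tested genes. Between the KO-labelled libraries the median difference of the members was -0.02.

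**Figure D2:**
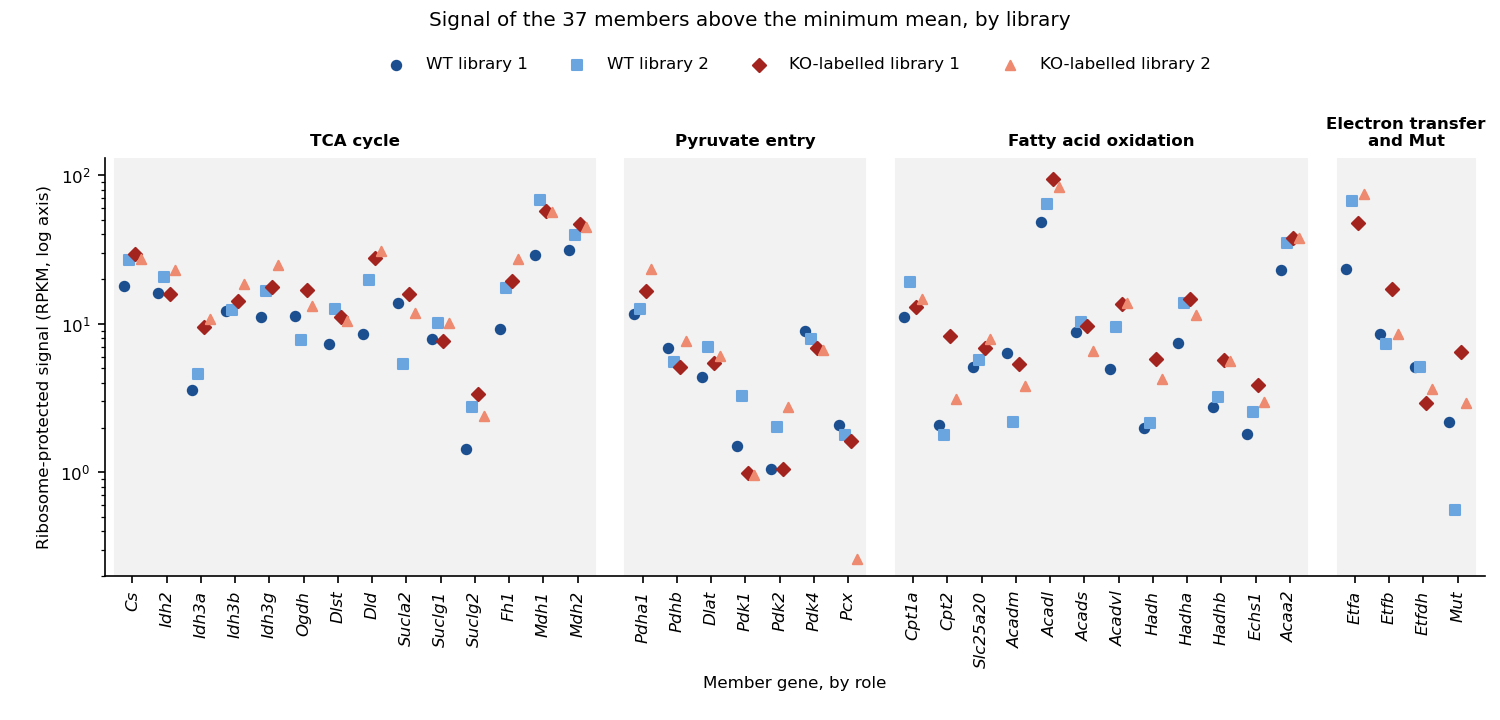
RPKM (log axis) of the 37 tested members in each library, grouped by role. Acadl, Mdh1 and Etfa stand highest and Pcx and Mut reach the lowest single values, 0.260 RPKM in KO library 2 and 0.561 RPKM in WT library 2.

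Depth differed widely between members. The tested members had between 15 and 427 reads over the 4 libraries together, with a median of 110, so that genes such as Pdk2, with 15 reads, allow only coarse statements. Exons of 10 members overlap those of another gene in the annotation (Idh3b with Nop56, Mdh1 with Wdpcp, Acadvl with Dvl2 and Mut with Cenpq among them). How the counting treated such reads, strand included, is not stated.

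The TCA cycle was read at every step that the list holds. Citrate synthase, Cs, which joins acetyl-CoA to oxaloacetate, stood at 18.1 and 26.8 RPKM in WT and at 29.6 and 27.2 RPKM in the KO-labelled libraries. The mitochondrial malate dehydrogenase Mdh2 stood at 31.2 and 39.9 against 47.0 and 44.8 RPKM, and its cytosolic relative Mdh1 at 29.1 and 68.6 against 57.1 and 56.4 RPKM. Groups did not overlap for Cs and Mdh2, whereas for Mdh1 the WT libraries enclosed both other values. The NADP-dependent isocitrate dehydrogenase Idh2 was at 16.0 and 20.5 RPKM in WT and at 15.8 and 23.0 RPKM in the KO-labelled libraries, which overlapped.

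The NAD-dependent isocitrate dehydrogenase, a rate-controlling enzyme of the cycle, is built from the catalytic subunit Idh3a and the subunits Idh3b and Idh3g. Idh3a (ENSMUSG00000032279, chromosome 9, 54586334 to 54604661, plus strand) was at 3.60 and 4.60 RPKM in WT (11 and 11 reads) and at 9.56 and 10.7 RPKM in the KO-labelled libraries (44 and 44 reads). All values of the KO-labelled libraries lay above those of WT, with a gap wider than the distance inside either group. The means were 4.10 ± 0.711 and 10.2 ± 0.831 RPKM (SD, n = 2 each), 2.48 times apart. The log2 fold change was 1.13 (SE 0.36, unadjusted p = 0.021, adjusted p = 0.660 by limma), and the unadjusted p stayed under 0.05 in 11 of 14 alternative analyses. Those where it did not were fits with a library left out, and such fits gave log2 fold changes from 0.99 to 1.28. Idh3b was at 12.1 and 12.4 against 14.2 and 18.5 RPKM, and Idh3g at 11.1 and 16.5 against 17.6 and 24.8 RPKM. Both were higher in the KO-labelled libraries without overlap, by smaller steps.

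The next step is taken by the 2-oxoglutarate dehydrogenase complex. Ogdh, its first component, was at 11.2 and 7.78 RPKM in WT and at 16.8 and 13.2 RPKM in the KO-labelled libraries. Dlst, the second component, which carries the run of 4 proline codons printed above, was at 7.29 and 12.7 against 11.2 and 10.5 RPKM and overlapped. Dld (ENSMUSG00000020664, chromosome 12, 31331277 to 31351453, minus strand), the dihydrolipoamide dehydrogenase shared by this complex and pyruvate dehydrogenase, was at 8.56 and 19.6 RPKM in WT (19 and 34 reads) and at 27.5 and 30.9 RPKM in the KO-labelled libraries (92 and 92 reads). WT library 1 was the low value, and the groups did not overlap. This was a log2 fold change of 1.11 (SE 0.50, unadjusted p = 0.069, adjusted p = 0.676 by limma), about as large as the difference of 1.11 between the WT libraries, and it was 0.55 without WT library 1.

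Succinyl-CoA ligase makes ATP or GTP from succinyl-CoA, with the alpha subunit Suclg1 and the alternative beta subunits Sucla2 and Suclg2. Suclg1 (ENSMUSG00000052738, chromosome 6, 73248382 to 73276911, plus strand), the first of the enzymes reported elsewhere as dependent on hypusinated eIF5A, was at 7.90 and 10.1 RPKM in WT (22 and 22 reads) and at 7.64 and 10.2 RPKM in the KO-labelled libraries (32 and 38 reads). The KO-labelled values enclosed those of WT. The log2 fold change was -0.02 (SE 0.38, adjusted p = 0.992 by limma), and it ranged from -0.20 to 0.54 over 14 alternatives, the upper end being the scaling to the same sum over all genes. Sucla2 was at 13.7 and 5.32 against 15.8 and 11.8 RPKM, and Suclg2 at 1.44 and 2.75 against 3.34 and 2.41 RPKM. Both overlapped, and Suclg2 rested on 33 reads.

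Fh1 (ENSMUSG00000026526, chromosome 1, 175600374 to 175625635, minus strand), the fumarase, was at 9.29 and 17.5 RPKM in WT and at 19.5 and 27.4 RPKM in the KO-labelled libraries. The highest WT value lay just below the lowest of the others. Its log2 fold change was 0.80 (SE 0.47, adjusted p = 0.697 by limma), against a difference of 0.85 between the WT libraries, and without WT library 1 it was 0.38. Over the 14 TCA cycle genes the median log2 fold change was 0.37, with 13 above 0 on the deposited scale, and 8 had both values of the KO-labelled libraries above both of WT, against 53.1% and 22.4% of tested protein-coding genes.

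Ratios between members inside a library do not depend on the scaling of the library. They were formed from reads per kilobase of coding sequence, since the deposited gene lengths count UTR exons and differ far more than the proteins do. Idh3a stood at 0.440 and 0.550 of Idh3b in WT and at 1.00 and 0.863 in the KO-labelled libraries, and at 0.625 and 0.536 of Idh3g against 1.05 and 0.834. So the catalytic subunit was read less than either partner in WT and at about the same level in the KO-labelled libraries. The mean log2 ratios differed by 0.92 and 0.69, and neither comparison overlapped between groups. Dld against Dlst was 0.404 and 0.532 in WT and 0.846 and 1.01 in the KO-labelled libraries, and Dld against Dlat was 1.84 and 2.68 against 4.83 and 4.83. Pdha1 against Pdhb, the subunits of the first component of pyruvate dehydrogenase, was 1.50 and 2.03 against 2.86 and 2.69. Hadha against Hadhb, the subunits of the mitochondrial trifunctional protein, was 2.21 and 3.55 in WT and 2.13 and 1.68 in the KO-labelled libraries, again without overlap and in the other direction. For these 6 pairs the exact two-sided permutation p was 0.333, the smallest possible here, so this permutation test cannot pass 0.05 here. Idh3a and Dld recur among these 6 pairs, which are thus not independent, and no share over other gene pairs was computed. The other 6 of the 12 pairs compared overlapped between groups. Among them, Etfa against Etfb was 3.32 and 11.1 in WT and 3.41 and 10.6 in the KO-labelled libraries, a spread inside each group that came with between 4 and 18 reads of Etfb per library.

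**Figure D3:**
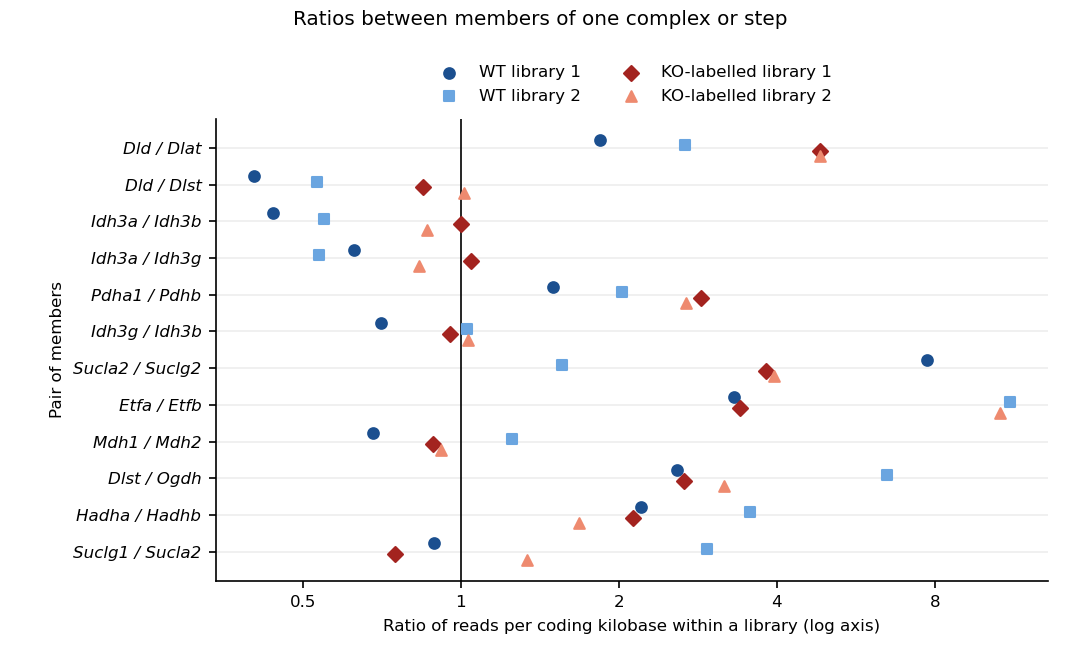
Ratio of reads per coding kilobase between pairs of members within each library (log axis), ordered by the difference between groups. Idh3a against Idh3b or Idh3g and Dld against Dlst lie below 1 in both WT libraries and near 1 in the KO-labelled libraries.

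Pyruvate enters the cycle through the pyruvate dehydrogenase complex. Pdha1 (ENSMUSG00000031299, chromosome X, 160122209 to 160138413, minus strand), the catalytic alpha subunit of pyruvate dehydrogenase, was at 11.6 and 12.5 RPKM in WT (26 and 22 reads) and at 16.5 and 23.2 RPKM in the KO-labelled libraries (56 and 70 reads). Both WT values lay below both others. Its log2 fold change was 0.66 (SE 0.40, adjusted p = 0.697 by limma), and without KO library 2 it was 0.43. Its partner Pdhb (ENSMUSG00000021748, chromosome 14, 8165996 to 8173025, minus strand) was at 6.87 and 5.50 against 5.14 and 7.70 RPKM, which overlapped, with a log2 fold change of 0.03 (SE 0.39, adjusted p = 0.985 by limma) that fell below 0 in 5 of 14 alternatives. Dlat was at 4.41 and 6.95 against 5.42 and 6.08 RPKM and also overlapped.

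The pyruvate dehydrogenase kinases, which phosphorylate Pdha1 and switch the complex off, were read sparsely. Pdk4 (ENSMUSG00000019577, chromosome 6, 5483351 to 5496309, minus strand), the kinase known to be induced when fatty acids are burned, was at 8.98 and 7.86 RPKM in WT (19 and 13 reads) and at 6.91 and 6.70 RPKM in the KO-labelled libraries (22 and 19 reads). The groups did not overlap, by a narrow margin. This gave a log2 fold change of -0.27 (SE 0.36, adjusted p = 0.814 by limma), and it was 0.27 with the same sum over all genes. Pdk1, a kinase known as a target of hypoxia signalling, was at 1.49 and 3.27 against 0.992 and 0.955 RPKM, and passed an unadjusted p under 0.05 only in the fit without WT library 1. Pdk2 was at 1.05 and 2.01 against 1.05 and 2.74 RPKM. Pcx, which makes oxaloacetate from pyruvate, was at 2.09 and 1.79 against 1.62 and 0.260 RPKM, the last being 1 read, and of the fits by limma the one without KO library 1 alone gave it an unadjusted p under 0.05. The median log2 fold change of the 7 genes was 0.03, and 3 were below 0 on the deposited scale.

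Fatty acid oxidation begins with the carnitine shuttle. Cpt1a (ENSMUSG00000024900, chromosome 19, 3322334 to 3385733, plus strand), the outer membrane enzyme that controls entry, was at 11.1 and 19.2 RPKM in WT (51 and 69 reads) and at 13.0 and 14.6 RPKM in the KO-labelled libraries (90 and 90 reads). The WT libraries enclosed the others. The log2 fold change was -0.08 (SE 0.43, adjusted p = 0.963 by limma), and it was above 0 with the same sum over all genes (0.50) and without WT library 2 (0.29). Cpt1b, the form typical of mature muscle, had 0 reads in each library, which allows up to 3 reads in each, and its exons overlap the gene Gm44502. The carrier Slc25a20 was at 5.14 and 5.70 against 6.83 and 7.92 RPKM, and Cpt2, the inner membrane enzyme, at 2.08 and 1.78 against 8.30 and 3.11 RPKM. Neither overlapped, and Cpt2 had 3 and 2 reads in WT against 18 and 6.

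The acyl-CoA dehydrogenases take the first step of beta-oxidation, each for its own chain length. Acadl, for long chains, was among the best read members, at 48.8 and 64.6 RPKM in WT and 94.6 and 83.4 RPKM in the KO-labelled libraries (59, 61, 172 and 135 reads), without overlap. Acadvl (ENSMUSG00000018574, chromosome 11, 70010183 to 70015411, minus strand), for very long chains, was at 4.94 and 9.48 RPKM in WT (8 and 12 reads) and at 13.5 and 13.8 RPKM in the KO-labelled libraries (33 and 30 reads). The KO-labelled libraries were close to each other and above both of WT. This was a log2 fold change of 0.90 (SE 0.43, unadjusted p = 0.084, adjusted p = 0.676 by limma), and without WT library 1 it was 0.49. Acadm, for medium chains, was at 6.36 and 2.17 against 5.35 and 3.80 RPKM, and overlapped. Acads (ENSMUSG00000029545, chromosome 5, 115110299 to 115119346, minus strand), for short chains, was at 8.77 and 10.3 against 9.72 and 6.55 RPKM, with a log2 fold change of -0.22 (SE 0.39, adjusted p = 0.861 by limma) that lay above 0 in 3 of 14 alternatives. Of these enzymes, Acadvl and Acadl did not overlap between groups and Acadm and Acads did, and the difference between the enzymes was not tested.

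The next steps hydrate, oxidise and cleave the chain. Hadh (ENSMUSG00000027984, chromosome 3, 131233419 to 131272101, minus strand), the short-chain hydroxyacyl-CoA dehydrogenase, was at 2.00 and 2.13 RPKM in WT (6 and 5 reads) and at 5.76 and 4.23 RPKM in the KO-labelled libraries (26 and 17 reads). The WT values lay close together and well below the others, on few reads. The means were 2.07 ± 0.0938 and 4.99 ± 1.08 RPKM (SD, n = 2 each), 2.42 times apart. The log2 fold change was 0.96 (SE 0.38, unadjusted p = 0.048, adjusted p = 0.672 by limma), and the unadjusted p was under 0.05 in 2 of the 13 alternatives that tested the gene. Hadhb, the thiolase subunit of the trifunctional protein, was at 2.77 and 3.22 against 5.68 and 5.63 RPKM without overlap, while Hadha, its partner subunit, was at 7.41 and 13.9 against 14.7 and 11.5 RPKM and overlapped. Echs1, a hydratase, was at 1.80 and 2.56 against 3.86 and 2.99 RPKM, and the thiolase Acaa2 at 23.0 and 35.0 against 37.8 and 37.6 RPKM, neither overlapping. Over the 12 tested genes of fatty acid oxidation the median log2 fold change was 0.44, with 10 above 0 on the deposited scale and 8 with both values of the KO-labelled libraries above both of WT, against the same 53.1% and 22.4% of tested protein-coding genes.

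Electrons from beta-oxidation pass to the electron transfer flavoprotein, Etfa with Etfb, and then to Etfdh, which hands them to ubiquinone. Etfa was at 23.5 and 67.1 RPKM in WT and at 48.1 and 74.9 RPKM in the KO-labelled libraries, a difference between the WT libraries of 1.47 on the log2(RPKM + 1) scale. Etfb was at 8.55 and 7.29 against 17.0 and 8.51 RPKM, and overlapped. Etfdh was at 5.08 and 5.09 RPKM in WT (23 and 18 reads) and at 2.94 and 3.63 RPKM in the KO-labelled libraries (20 and 22 reads), one of the 4 members with both of these below both of WT. Mut (ENSMUSG00000023921, chromosome 17, 40934685 to 40961988, plus strand), which turns methylmalonyl-CoA into succinyl-CoA for the TCA cycle and is the other enzyme reported elsewhere as dependent on hypusinated eIF5A, was at 2.19 and 0.561 RPKM in WT and at 6.41 and 2.94 RPKM in the KO-labelled libraries. It rested on 5, 1, 22 and 9 reads. The KO-labelled libraries lay above WT, by less than the distance inside either group. The fitted log2 fold change was 1.28 (SE 0.57, unadjusted p = 0.067, adjusted p = 0.676 by limma) and ranged from 0.76 to 1.86 over the 13 alternatives that tested it, with the unadjusted p under 0.05 in 4 of them. Exons of Mut overlap those of Cenpq.

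**Figure D4:**
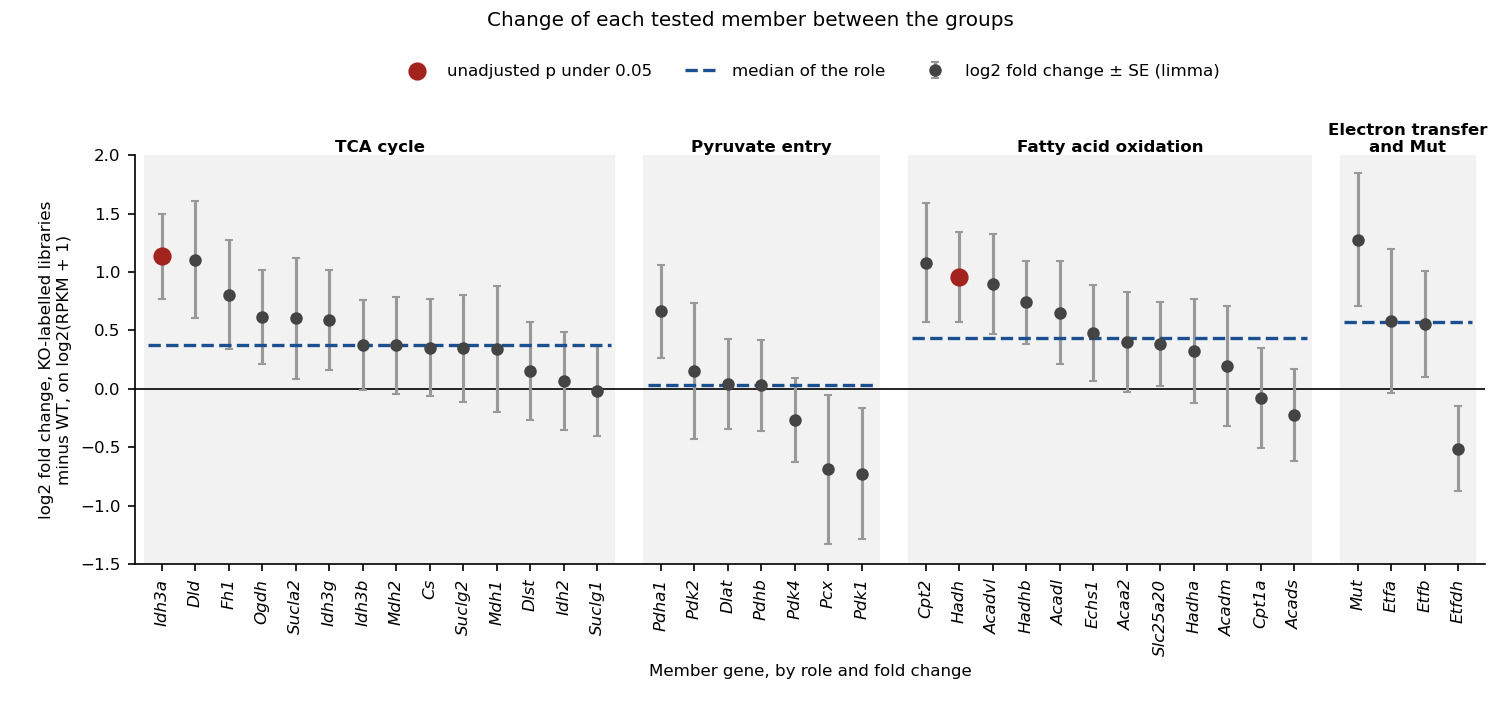
Log2 fold change with its standard error (limma, log2(RPKM + 1), KO-labelled libraries minus WT) of each tested member, by role. Idh3a and Hadh are at an unadjusted p under 0.05, the dashed medians are 0.37, 0.03, 0.44 and 0.57 from left to right, and Pdk1, Pcx and Etfdh lie lowest.

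The order of levels per coding kilobase was compared as well, keeping the library scaling of the deposited values. In WT the malate dehydrogenases Mdh1 (124.8 ± 71.4, SD, n = 2) and Mdh2 (124.6 ± 21.6) led, followed by Cs (93.0 ± 25.6), Acadl (87.9 ± 17.3), Etfa (83.0 ± 56.4) and Dlst (69.8 ± 26.6) reads per coding kilobase at that scaling. The values of each of these 6 overlapped those of the next in this order. The same 6 genes led in the KO-labelled libraries, at 145.0 ± 1.3, 160.9 ± 5.5, 117.6 ± 6.9, 138.0 ± 12.3, 112.6 ± 34.7 and 75.9 ± 3.5 respectively. At the other end, Mut, Cpt2, Pcx and Pdk2 lay between 2.3 and 4.0 in WT. Among the 37 members, Idh3a held places 26 and 21 in the WT libraries and place 14 in both KO-labelled libraries. Dld held places 21 and 9 in WT, with 20.6 and 47.2 reads per coding kilobase at that scaling, and places 7 and 6 in the KO-labelled libraries. Suclg1 held places 11 and 10 against 19 and 15, and Cpt1a places 9 and 7 against 13 and 12. These places are descriptive and were not tested.

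Other genes of the same pathways were taken from fixed lists. Of 31 further genes of the TCA cycle, pyruvate handling and their shuttles, 27 were tested, 20 were above 0 on the deposited scale, the median log2 fold change was 0.28, and 0 passed an unadjusted p under 0.05 in either direction by limma. Of 38 further genes of fatty acid handling, 32 were tested with a median of 0.36, 21 above 0, and at an unadjusted p under 0.05 there were 4 higher and 0 lower, against 2.86% and 4.46% of all tested genes. These 4 act around the same beta-oxidation spiral. Eci1 and Eci2, the isomerases that prepare unsaturated fatty acids, were at 4.68 and 7.98 against 11.9 and 18.0 RPKM, and at 3.89 and 3.45 against 7.76 and 7.37 RPKM. Decr1, the dienoyl-CoA reductase, was at 5.13 and 2.19 against 8.81 and 8.94 RPKM, and Acat1, the acetoacetyl-CoA thiolase, at 6.62 and 5.08 against 12.9 and 11.5 RPKM. Their log2 fold changes lay between 0.88 and 1.16, each with an adjusted p of 0.672 by limma, and the groups did not overlap. Of 14 alternatives, the unadjusted p was under 0.05 in 8 for Eci1, 7 for Acat1, 6 for Decr1 and 1 for Eci2, and the log2 fold change of Decr1, 1.16 as fitted, was 0.69 without WT library 2. Of 18 regulators of oxidative genes, 11 were tested, with a median of -0.32 and 0 past the unadjusted threshold, and the coactivator Ppargc1a had too little signal to be tested.

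Other energy pathways were set beside the members. The nuclear-encoded subunits of the respiratory chain (28 tested rows) showed 26 rows above 0, the median being 0.46 on the log2 scale, and the glycolytic genes (18 tested rows, of which 2 carry the symbol Aldoa) had 0.33 with 13 above 0. Both lists also had lower shares of protein-coding reads in WT library 1 than in the other 3 libraries, 0.350% for the respiratory chain against 0.510% to 0.598%, and 0.495% for glycolysis against 0.718% to 0.735%. The median difference between WT libraries 2 and 1 was 0.56 and 0.51 on the log2 scale for these lists, and 0.34 for the members. WT library 1 was therefore the lowest library for the members and for both other lists, and no test of a difference between the lists was made.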

How the data were processed

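The data were 4 libraries of primary myoblasts (2 WT, 2 labelled KO; groups from the sample titles), titled Polysome-Seq but with a protocol of ribosome profiling. Per the submitters' processing notes and the study's methods, rRNA and tRNA reads were removed, reads were mapped with TopHat2 to mm10 and counted with HTSeq. The authors deposited RPKM values per gene, and their gene lengths include UTRs. RPKM times length gave whole multiples of 1 step for 100% of values (tolerance 0.02), so reads were recovered. Depth was 642429 to 704006 reads per library, and intervals cover counting error only.

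Every gene averaging 1 RPKM or more over the 4 libraries was tested on log2(RPKM + 1) with limma 3.58.1 in R 4.3.3 (lmFit, eBayes with trend), with Benjamini-Hochberg adjustment over all 11363. This scale understates changes of weakly read genes. Annotation was GENCODE M21, in which 99.7% of the identifiers were found. The members and lists were chosen with earlier results of these data known. Members given with full statistics were Suclg1, Mut, the 5 lowest and 5 highest log2 fold changes at a mean of at least 5 RPKM, and any at an unadjusted p under 0.05. Listed genes were named at an unadjusted p under 0.05, at most 4 per list, with Eif5a, Myod1 and Myog. The 14 alternatives were pseudocount, filters, scaling, limma-voom, replicate block, coding GC and each library left out. Scripts were tested on simulated data.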

Additional observations from a re-analysis of the deposited data

How the results depend on the processing

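Counts of members at an adjusted p under 0.05 were 0 in both directions under all 14 alternatives. The count of members higher at an unadjusted p under 0.05, 2 as reported, was 17 when libraries were scaled to equal sums over all genes, where 14.8% of all tested genes were higher at that threshold. It was 1 with equal sums over protein-coding genes, after removal of the coding GC trend, at a pseudocount of 0.1, when genes of any level above 0 were kept, and when 5 RPKM was the minimum mean, against 2.09% to 3.38% of the genes tested in these fits. It ranged from 0 to 5 with a library left out. The count of lower members, 0 as reported, ranged from 0 to 1 with a library left out (Pdk1 without WT library 1, Pcx without KO library 1). The count of higher members was 3 with a minimum of 20 reads, against 4.01% of genes, and 3 in the fit limited to protein-coding genes, chosen after seeing the data, against 4.23%. The median log2 fold change of the members, 0.37 as reported, was 0.94 with equal sums over all genes, 0.27 with equal protein-coding sums, 0.42 with limma-voom, 0.29 with the GC trend removed, and from 0.20 to 0.54 with a library left out. The count of members with values of the KO-labelled libraries above those of WT without overlap, whose alternatives were chosen after seeing the data, was 30 with equal sums over all genes, against 46.5% of protein-coding genes, 15 with equal protein-coding sums, against 18.3%, and between 21 and 25 with a library left out, where 34.2% to 39.8% of protein-coding genes do the same. Signs turned in these cases: Eif5a, 0.32 as reported, was -0.12 without WT replicate 1 and up to 0.76 with another library left out. Suclg1 was 0.54 with equal sums over all genes and from -0.20 to 0.17 with a library left out. Pdk4 was 0.27, Acads 0.33 and Cpt1a 0.50 with equal sums over all genes. Acads was 0.046 with the GC trend removed and from -0.48 to 0.029 with a library left out, and Cpt1a from -0.45 to 0.29. Pdhb was -0.067 with equal protein-coding sums, -0.0099 with limma-voom, -0.17 with the GC trend removed, and from -0.22 to 0.28 with a library left out. The cause was not tested. With a library left out, the lone library is assumed to vary like the other group. The groups share replicate numbers only: deviations of same-numbered libraries correlated at 0.06, and the replicate block gave 2 higher members (Idh3a and Mut), against 2.80% of all tested genes, and a median of 0.37. With a median of 110 reads per member, changes of sparsely read members could not be resolved.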
